A study of Mus musculus with 6 samples.

Results

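The genes described here make cholesterol and fatty acids. They are 32 of the 52997 gene symbols in the count table, taken by name: 18 enzymes of the sterol pathway, 5 genes of its control by the SREBP transcription factors, and 9 enzymes of fatty acid synthesis, elongation and desaturation. All 32 were found, and 30 held enough counts to be tested. Messenger RNA had been measured in mesenchymal stromal cells, fibroblast-like cells that lay down collagen and nurse their neighbours, from 2 tissues of 8-week-old C57BL/6 mice at rest, and the labels give no treatment and no altered gene. One group came from hindlimb skeletal muscle. The other came from lymph nodes pooled over the inguinal, axillary, brachial and cervical sites. There were 3 libraries of 1000 sorted cells per tissue, called muscle libraries 2, 3 and 4 and lymph node libraries 1, 2 and 3 after the table's columns. The submitters call them biological replicates, but 2 muscle titles carry the same number (with letters a and b), so p-values measure the spread between these libraries, part of which may be technical.

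Cells build cholesterol from acetyl-CoA through mevalonate, squalene and lanosterol. SREBP proteins, held in the endoplasmic reticulum with the escort protein SCAP, are retained there by INSIG proteins when sterols are plentiful. When sterols run low they move to the Golgi, are cut and enter the nucleus, where they switch on sterol enzymes (mainly SREBP2, from Srebf2) and fatty acid enzymes (mainly SREBP1, from Srebf1). Fibroblasts use the products for membranes and lipid storage.

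Total counts per library ran from 415460 in muscle library 4 to 2397134 in lymph node library 2. Muscle library 4 stood apart: over all 10823 tested genes its log2 CPM (counts scaled to library size, with TMM factors) had Pearson r = 0.705 and 0.702 with the other muscle libraries, which had r = 0.952 with each other. It also held more transcripts of blood cells. Its summed level of 10 T cell markers was 508 CPM, against 4.57 to 12.7 CPM elsewhere, with 0 of the 10 undetected there and between 1 and 5 undetected in each other library. For 8 B cell markers the sum was 2097 CPM there and 16.6 to 262 CPM elsewhere, and for 10 myeloid markers 228 CPM against 14.2 to 30.5 CPM. The myeloid sum there was mostly Lyz2 (83.3 CPM), Cd14 (51.1 CPM), S100a9 (45.7 CPM) and Tyrobp (26.9 CPM). Cd68, Csf1r and Itgam had 0 counts there, and Cd68 was highest in lymph node library 3, at 15.5 CPM. All 10 stromal markers, among them Pdgfra, Col1a1 and Dcn, were detected in all 6 libraries. Markers of adipocytes, cells with high fatty acid synthesis, summed to 4.75 to 8.06 CPM in muscle and 60.5 to 68.7 CPM in lymph node, where nearly all of it was Plin4 and Fabp4. Adipoq, the defining adipocyte hormone, was at most 2.15 CPM in any library. Because of muscle library 4, the fits are given with and without it. The part that blood cell RNA played in these results was not tested. In such bulk samples, fewer cells of a type and less RNA per cell cannot be told apart.

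The question was whether stromal cells of the tissues differ in these pathways. With all 6 libraries, Scd1, a stearoyl-CoA desaturase that makes monounsaturated fatty acids, was the 1 member of 30 that passed the test, higher in muscle. Of all tested genes, 4.32% were called, 1.46% higher and 2.86% lower. Without muscle library 4, 8 of 30 members were called higher in muscle and 0 lower, where 12.4% of all genes were called, 4.79% higher and 7.58% lower. These were Hmgcs1, Fdps, Fdft1, Cyp51, Msmo1, Insig1, Scd1 and Fads1: 5 sterol enzymes, 1 SREBP regulator and 2 fatty acid desaturases. That fit rests on 2 muscle libraries. The test was edgeR quasi-likelihood, two-sided, Benjamini-Hochberg adjusted over all tested genes, called under 0.05. At an unadjusted p under 0.05 it had 8 of 30 members with and 18 of 30 without muscle library 4. Of all genes, 1637 of 10823 with and 2620 of 11246 without that library had such a p.

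Whether called or not, the members lay mostly on 1 side. The log2 fold change (muscle over lymph node) was above 0 for 26 of 30 tested members (86.7%) and for 51.5% of all tested genes. The members' median was 0.46, and that of all genes was 0.02. Without muscle library 4 the medians were 0.50 and 0.0070, with 27 of 30 members (90%) and 50.8% of all genes above 0. Among the other single libraries left out, the members' median was lowest without lymph node library 1, at 0.22 (24 of 31 above 0), and was 0.27 without muscle library 3 (23 of 30 above 0). It was highest without lymph node library 3, at 0.62 (28 of 31 above 0). Muscle libraries 2 and 3 both exceeded every lymph node library in 22 of the 30 tested members, a pattern that 19.2% of all tested genes had, and both lay below every lymph node library in 1 member, Acly (20.1% of all genes; 39.3% for either direction). Over all 6 libraries the tissues did not overlap in 8 members (23.6% of all genes): 7 with muscle above (9.93% of all genes) and 1 below (13.7% of all genes). Within lymph node, library 1 was the lowest of the 3 for 27 of the 32 members. The share of all genes with this pattern was not counted, so it may not be particular to the members.

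**Figure D1:**
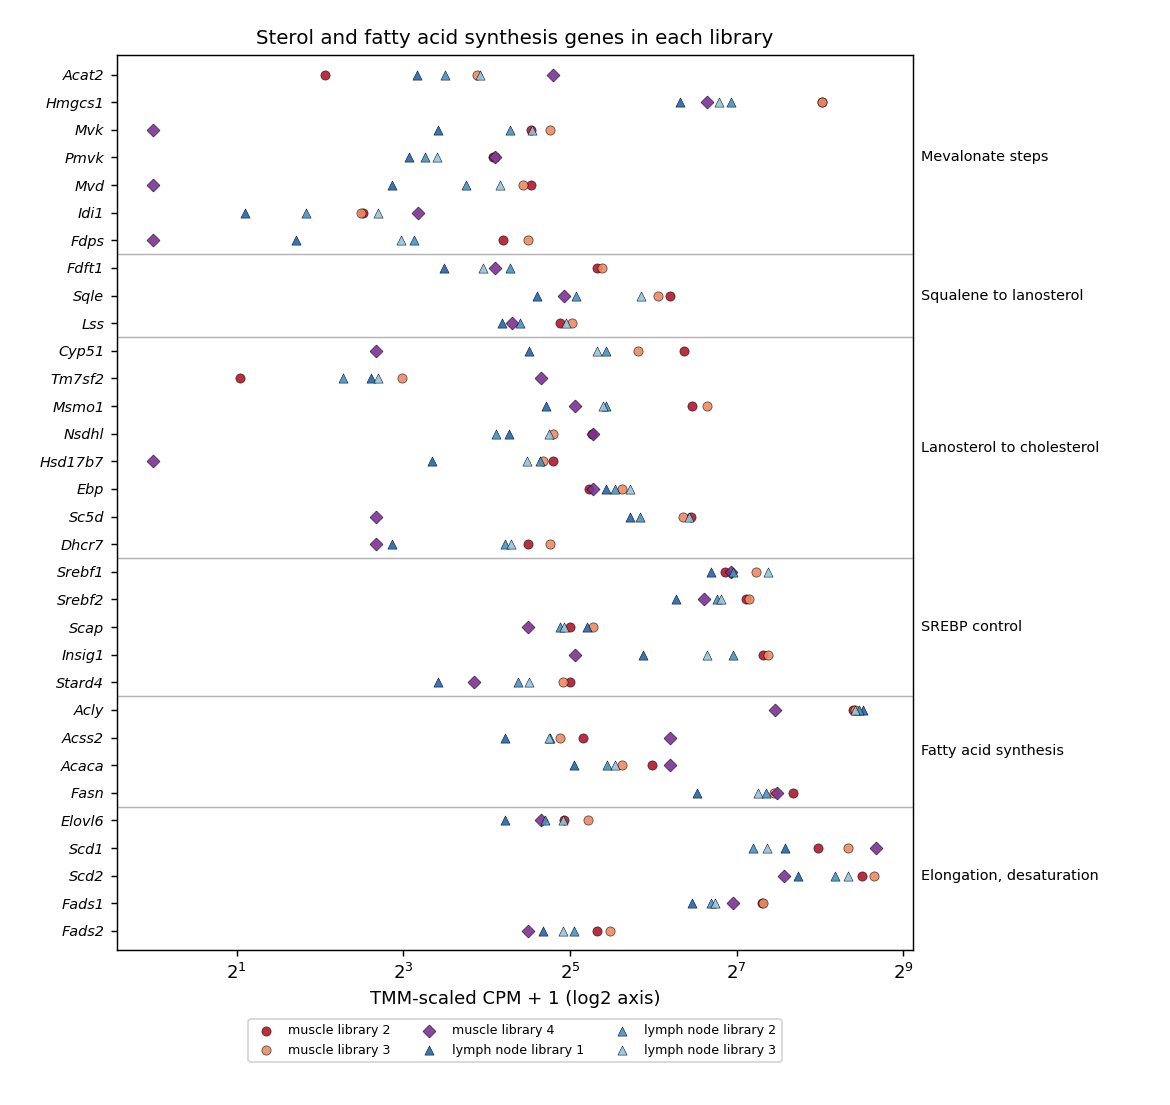
Level of each of the 32 genes (TMM-scaled CPM + 1, log2 axis) in each library, in pathway order from top to bottom, with circles and diamonds for muscle and triangles for lymph node. Muscle libraries 2 and 3 sit to the right of all lymph node libraries for most sterol enzymes, while muscle library 4 spreads from 0 counts (Mvk, Mvd, Fdps, Hsd17b7) to the highest level of the 6 libraries (Scd1, Acss2 and Acaca among others).

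Summed by step, muscle libraries 2 and 3 averaged 2.22, 1.86 and 1.56 times the lymph node mean in the 3 sterol groups, in pathway order. The ratio was 1.11 for fatty acid synthesis and 1.52 for elongation and desaturation, close to that of the last sterol group. Single genes weigh heavily in these sums. In muscle libraries 2 and 3 Hmgcs1 gave 260.0 and 260.5 CPM of the mevalonate sums, and Acly 337 and 340.4 CPM of the fatty acid synthesis sums. The 7 genes of the mevalonate steps summed to 345, 363 and 151 CPM in muscle libraries 2, 3 and 4 and to 114, 181 and 184 CPM in lymph node libraries 1, 2 and 3. The first pair was above every lymph node library, at 2.22 times the lymph node mean, and library 4 lay within the lymph node range, at 0.943 times that mean. From squalene to lanosterol (3 genes) the sums were 140.3, 138 and 64.5 CPM in muscle and 50.8, 71.3 and 102 CPM in lymph node. The 8 genes from lanosterol to cholesterol summed to 379, 368 and 148 CPM in muscle and 179.9, 248 and 289 CPM in lymph node, so that muscle library 4 was the lowest of the 6 there. For the 4 fatty acid synthesis genes the tissues overlapped, with 638, 591 and 497 CPM in muscle and 505, 585 and 564 CPM in lymph node. In elongation and desaturation (5 genes) all 3 muscle libraries were above all lymph node libraries, at 838, 959.8 and 766 CPM against 532, 595 and 650.1 CPM. Scd1 alone gave 409 CPM of the sum of muscle library 4. Of the other genes there, Fads1 (124 CPM) was above lymph node and Elovl6 was within its range. Scd2 (188 CPM) and Fads2 (21.5 CPM) were the lowest of the 6 libraries.

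**Figure D2:**
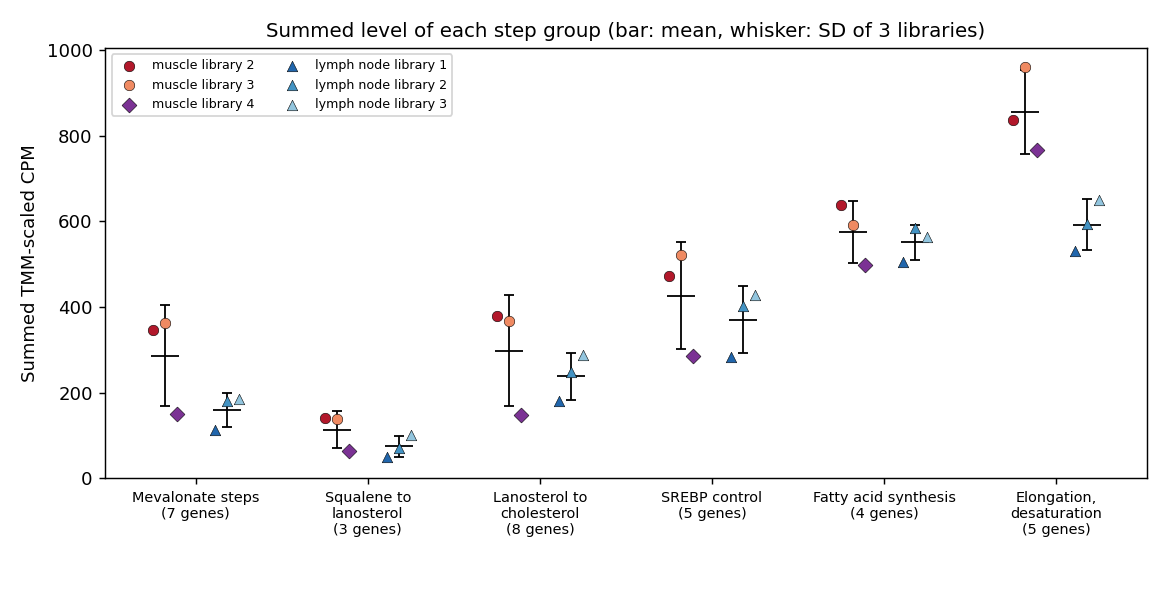
Summed TMM-scaled CPM of each step group in each library, with the mean (bar) and SD (whisker) of 3 libraries per tissue. The 3 sterol groups show muscle libraries 2 and 3 above and muscle library 4 within or below the lymph node range. Of the 6 groups only the elongation and desaturation group has all 3 muscle libraries above lymph node. Scd1 is the largest part of that group's sum in muscle library 4.

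Promoters were read for what the members share besides their level. RefSeq windows (GRCm38.p6, 250 bases before to 50 after a gene start) were at hand for 25 of the 32 genes, 31 windows in all. Both strands were searched for TCACNCCAC, a form of the sterol regulatory element that SREBP binds, and for CCAAT, the box bound by NF-Y, a factor known to act with SREBP. No match of one overlapped a match of the other in Hmgcs1. CCAAT was present in 21 of 31 member windows (67.7%), from 20 genes, and in 37.4% of all 32851 windows. TCACNCCAC was in 1 member window, that of Hmgcs1, and in 1.24% of all windows. A match describes these letters and shows no binding. The 250 bases before the RefSeq start are shown for the 4 genes called without muscle library 4 that had a window. They run 5′ to 3′ along the gene, with matches to either motif on either strand in capitals. They lie at chr13:119690101-119690350, plus strand (Hmgcs1), chr8:64733579-64733828, minus strand (Msmo1), chr5:4104698-4104947, minus strand (Cyp51) and chr5:28071162-28071411, plus strand (Insig1). RefSeq starts differ from the GENCODE gene bounds given below. By those bounds most of the Msmo1 stretch, with all its marked boxes, lies inside the gene. So do part of the Cyp51 stretch, with its box, and part of the Insig1 stretch, without its box.
Hmgcs1: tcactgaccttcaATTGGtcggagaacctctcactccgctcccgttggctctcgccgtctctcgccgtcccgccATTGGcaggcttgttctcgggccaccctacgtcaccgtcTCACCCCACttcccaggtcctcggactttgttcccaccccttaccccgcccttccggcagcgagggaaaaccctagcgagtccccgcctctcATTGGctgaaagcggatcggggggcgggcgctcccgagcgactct
Msmo1: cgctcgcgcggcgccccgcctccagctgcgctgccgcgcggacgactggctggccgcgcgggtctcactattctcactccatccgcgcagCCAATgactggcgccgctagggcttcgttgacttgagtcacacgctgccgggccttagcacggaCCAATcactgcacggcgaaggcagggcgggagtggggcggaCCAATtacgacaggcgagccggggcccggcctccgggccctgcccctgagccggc
Cyp51: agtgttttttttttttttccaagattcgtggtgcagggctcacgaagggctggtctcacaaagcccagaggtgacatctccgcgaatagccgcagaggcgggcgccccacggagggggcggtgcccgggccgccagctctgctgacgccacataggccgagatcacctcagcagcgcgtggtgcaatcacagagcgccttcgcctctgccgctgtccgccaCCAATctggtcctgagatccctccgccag
Insig1: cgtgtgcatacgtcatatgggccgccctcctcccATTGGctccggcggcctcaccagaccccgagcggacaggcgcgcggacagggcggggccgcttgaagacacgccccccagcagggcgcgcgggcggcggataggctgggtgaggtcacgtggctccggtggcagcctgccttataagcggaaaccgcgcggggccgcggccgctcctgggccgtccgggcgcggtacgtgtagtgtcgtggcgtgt
Hmgcs1 holds TCACCCCAC together with 3 reverse CCAAT boxes (ATTGG) in this stretch, Msmo1 holds 3 forward boxes, and Cyp51 and Insig1 hold 1 box each.

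In the mevalonate steps, Hmgcs1 (chromosome 13, 119690379 to 119708260, GRCm38) encodes the synthase that makes HMG-CoA, the substrate for mevalonate. It measured 260.0, 260.5 and 99.5 CPM in muscle libraries 2, 3 and 4 and 78.8, 121 and 109 CPM in lymph node libraries 1, 2 and 3. Muscle libraries 2 and 3 were far above lymph node, and library 4 was inside its range. The log2 fold change was 1.04 ± 0.34 (SE, edgeR adjusted p = 0.154) with all libraries and 1.32 ± 0.17 without muscle library 4 (adjusted p = 8.88e-05), a 2.5-fold difference and the lowest p of the members. Of its 25-base words (runs of 25 bases of its transcripts), 13.8% also occur in transcripts of other genes, whose reads counting can confuse with it. Fdps (chromosome 3, 89093588 to 89101959) makes farnesyl diphosphate, the branch point toward sterols and protein prenylation. Its levels were 17.4, 21.5 and 0 CPM in muscle and 2.28, 7.73 and 6.83 CPM in lymph node. Muscle library 4 had 0 counts, which allows up to 8.06 CPM there (3 counts, counting error only). Its log2 fold change went from 1.39 ± 0.72 (adjusted p = 0.42) to 1.72 ± 0.43 (adjusted p = 0.0158) without that library, the largest among the members. For Fdps 28.4% of words are shared, so its level is uncertain.

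The other mevalonate enzymes were not called in either fit. The kinase Mvk measured 22.2, 26.1 and 0 CPM in muscle and 9.71, 18.5 and 22.3 CPM in lymph node, and the decarboxylase Mvd 22.2, 20.7 and 0 CPM and 6.28, 12.5 and 16.8 CPM. Both had 0 counts in muscle library 4, where the mean level of muscle libraries 2 and 3 would correspond to 9.61 and 8.54 counts. Pmvk, the second kinase, was alike in the 3 muscle libraries at 15.8, 16.1 and 16.1 CPM, all above the 7.42, 8.59 and 9.56 CPM of lymph node (log2 fold change 0.90 ± 0.37, adjusted p = 0.285). Acat2, the thiolase of the first step, went the other way in library 4: it measured 3.16, 13.8 and 26.9 CPM in muscle and 7.99, 10.3 and 14.1 CPM in lymph node. With 45.5% of its words shared, mostly with Acat3, it is uncertain as a single gene. The isomerase Idi1 was below the filter for testing, with 18 counts in all of muscle and 20 in all of lymph node.

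Of the genes from squalene to lanosterol, Fdft1 (chromosome 14, 63145150 to 63179578), the squalene synthase that commits farnesyl diphosphate to sterols, measured 39, 40.7 and 16.1 CPM in muscle and 10.3, 18.5 and 14.6 CPM in lymph node. Again muscle libraries 2 and 3 exceeded all lymph node libraries and library 4 fell between them. The log2 fold change was 1.23 ± 0.38 (adjusted p = 0.136) and, without muscle library 4, 1.43 ± 0.27 (adjusted p = 0.00234). Its exons overlap those of Ctsb on the opposite strand, and strand use in counting is not known, so 34.1% of its words are shared. Ctsb itself had the opposite sign, at 717 ± 144 CPM against 1235 ± 37.9 CPM (SD, n = 3 each, edgeR adjusted p = 0.0609, and 0.00347 without muscle library 4). Sqle, the oxygenase that forms squalene epoxide, measured 72.8, 65.3 and 29.6 CPM in muscle and 23.4, 32.6 and 56.9 CPM in lymph node (0.65 ± 0.38, adjusted p = 0.497). It missed the threshold without muscle library 4 as well (0.86 ± 0.28, adjusted p = 0.0614). It was called in 2 of 18 alternative settings, both chosen after seeing the data. The cyclase Lss, which forms lanosterol, overlapped between tissues at 28.5, 31.5 and 18.8 CPM and 17.1, 20.2 and 30 CPM.

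Among the late enzymes, which turn lanosterol into cholesterol, Cyp51 and Msmo1 act early, on the methyl groups of lanosterol. Msmo1 (chromosome 8, 64718139 to 64733792) measured 87, 99.1 and 32.3 CPM in muscle and 25.1, 42.1 and 41 CPM in lymph node, with library 4 inside the lymph node range. Its log2 fold change was 1.09 ± 0.36 (adjusted p = 0.166) and 1.34 ± 0.21 without muscle library 4 (adjusted p = 0.00056). Cyp51 (chromosome 5, 4081145 to 4104746), the lanosterol demethylase, had a wide range in muscle, 81.8, 55.3 and 5.38 CPM, against 21.7, 42.1 and 39.2 CPM in lymph node. It had 2 counts in muscle library 4, where the mean of the other muscle libraries would give 27.3. The log2 fold change was 0.63 ± 0.53 (adjusted p = 0.668) with that library and 0.99 ± 0.26 (adjusted p = 0.0202) without it. Cyp51 overlaps Akap9 on the opposite strand, so some of its reads are uncertain.

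The remaining late enzymes were not called with or without muscle library 4. Nsdhl, which acts beside Msmo1 in removing methyl groups, had 37.4, 26.9 and 37.6 CPM in muscle and 18.3, 16.3 and 26 CPM in lymph node, so the tissues did not overlap even with library 4. Sc5d, a desaturase, was low in that library alone: 86.5, 80.7 and 5.38 CPM in muscle against 52, 56.3 and 85.1 CPM in lymph node. Hsd17b7, a ketone reductase, showed 0 counts there against 26.9 and 24.6 CPM in muscle libraries 2 and 3, and had 9.14, 24.1 and 21.4 CPM in lymph node. The last-step reductase Dhcr7 measured 21.6, 26.1 and 5.38 CPM and 6.28, 17.6 and 18.7 CPM. Ebp, the sterol isomerase, was nearly level, at 36.4, 48.4 and 37.6 CPM in muscle and 42.3, 45.5 and 51.9 CPM in lymph node (-0.18 ± 0.23, adjusted p = 0.797). The reductase Tm7sf2 was too low to test, with 20 counts in muscle and 30 in lymph node.

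Of the 5 control genes 1 was called, in the fit without muscle library 4. Insig1 (chromosome 5, 28071363 to 28078662), both an SREBP target and the protein that retains SREBP, measured 159, 165 and 32.3 CPM in muscle and 57.7, 123 and 99.2 CPM in lymph node. Muscle library 4 was the lowest of all 6, and muscle libraries 2 and 3 were the highest. The log2 fold change was 0.42 ± 0.47 (adjusted p = 0.764) and, without muscle library 4, 0.77 ± 0.23 (adjusted p = 0.0382), a call lost when lymph node library 3 was also left out (adjusted p = 0.0928). Stard4, which carries sterol between membranes, measured 31.1, 29.2 and 13.4 CPM and 9.71, 19.8 and 21.9 CPM and was not called. Srebf2 gave 137, 141 and 96.8 CPM in muscle and 76.5, 108 and 112 CPM in lymph node, 0.36 ± 0.23 with all libraries (adjusted p = 0.545) and 0.48 ± 0.17 without muscle library 4 (adjusted p = 0.0935). For Srebf1 the tissues overlapped in full, at 116, 149.8 and 121 CPM and 103, 123 and 166 CPM (-0.016 ± 0.23, adjusted p = 0.99), and the sign of its small difference changed between settings. Scap, the escort, had 31.1, 37.7 and 21.5 CPM in muscle and 36, 28.4 and 29.6 CPM in lymph node (0.0078 ± 0.28, adjusted p = 0.997), also with a sign that changed. These are RNA levels, and the cutting of SREBP proteins was not measured.

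**Figure D3:**
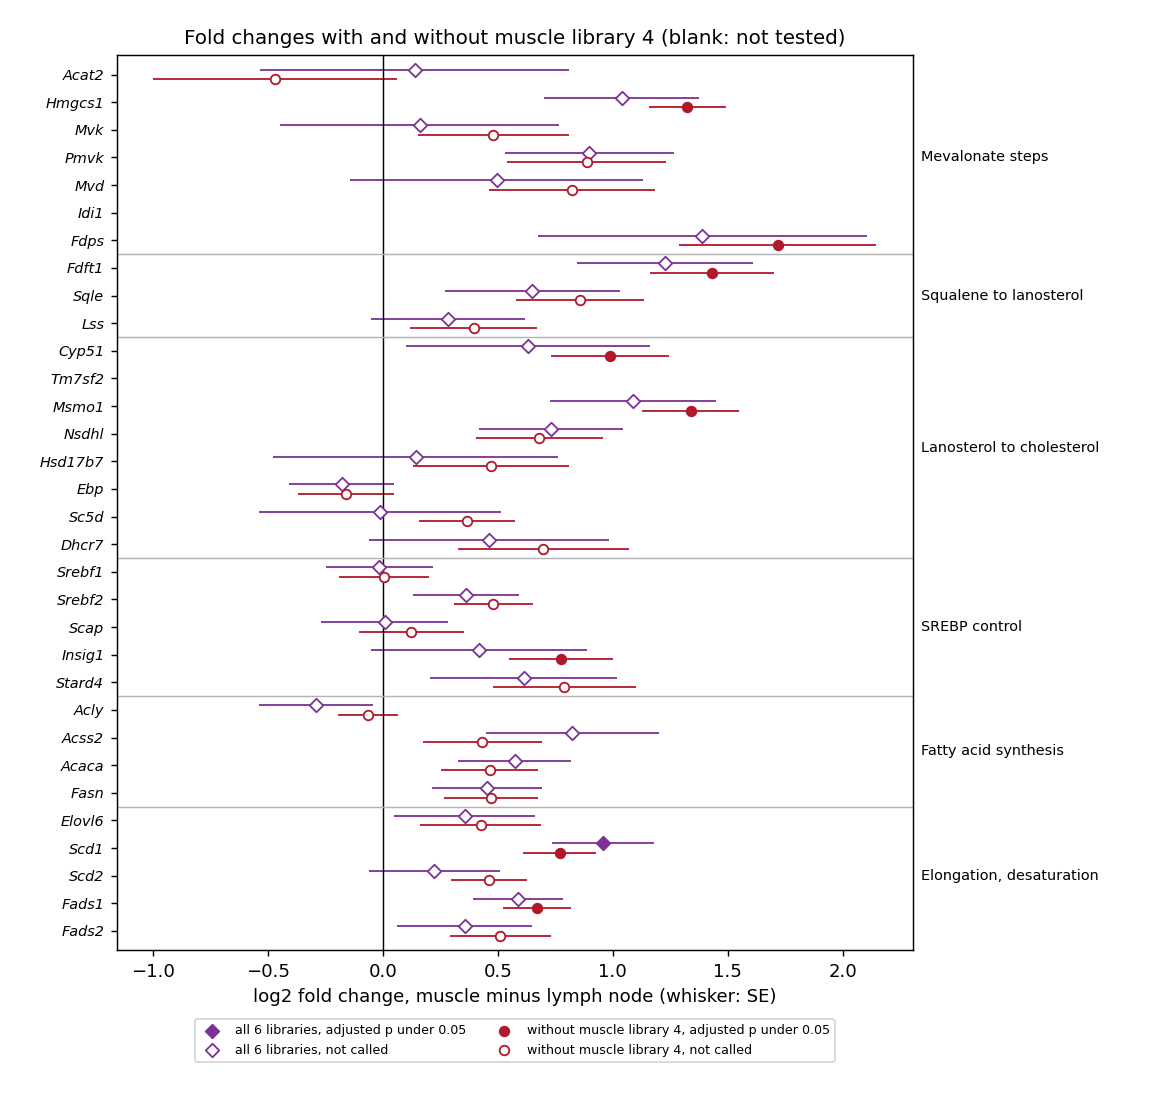
Log2 fold change of each tested gene, muscle minus lymph node, with its SE, from all 6 libraries (diamonds) and without muscle library 4 (circles); filled symbols had an edgeR adjusted p under 0.05. Scd1 is filled in both fits, and Hmgcs1, Fdps, Fdft1, Cyp51, Msmo1, Insig1 and Fads1 without muscle library 4 alone.

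None of the 4 genes of fatty acid synthesis was called in either fit. Acly, which supplies cytosolic acetyl-CoA from citrate, lay in a narrow range in 5 libraries: 337, 340.4 and 175 CPM in muscle and 364, 353 and 341 CPM in lymph node. Its muscle libraries were all below lymph node, by a margin under 1 CPM for library 3, and the difference was not called (-0.29 ± 0.25, adjusted p = 0.672). Fasn, the fatty acid synthase, measured 204, 174 and 177 CPM and 91.4, 163 and 152 CPM (0.45 ± 0.24, adjusted p = 0.445). Acaca, the acetyl-CoA carboxylase that makes malonyl-CoA, measured 62.2, 48.4 and 72.6 CPM and 32, 42.5 and 45.5 CPM (0.57 ± 0.25, adjusted p = 0.312), and 34.8% of its words occur elsewhere. Acss2, which makes acetyl-CoA from acetate, had 34.8, 28.4 and 72.6 CPM and 17.7, 26.2 and 26 CPM. In these 3 genes every muscle library was above every lymph node library, as in 9.93% of all tested genes. Without muscle library 4 the edgeR adjusted p of Fasn, Acaca and Acss2 was 0.176, 0.203 and 0.352.

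Desaturases carried the called differences on the fatty acid side. Scd1 (chromosome 19, 44394455 to 44407879) measured 251, 321 and 409 CPM in muscle and 190.2, 146 and 164 CPM in lymph node, and here muscle library 4 was the highest of all. The log2 fold change was 0.96 ± 0.22 (adjusted p = 0.0446) and, without muscle library 4, 0.77 ± 0.16 (adjusted p = 0.0047). With muscle library 4 kept, its call was lost when any 1 other library was left out (adjusted p up to 0.292), with a log2 fold change between 0.77 and 1.10 over all single libraries left out. Scd2, its neighbour on chromosome 19 with the same activity, was higher than lymph node in muscle libraries 2 and 3 but not in 4, at 361, 399.6 and 188 CPM against 212, 289.6 and 322 CPM (0.22 ± 0.28, adjusted p = 0.797). They share 9.97% and 8.57% of their words with other genes, mainly with each other. Fads1 (chromosome 19, 10182888 to 10196877), a desaturase of polyunsaturated fatty acids, was above lymph node in all 3 muscle libraries, at 157, 159 and 124 CPM against 87.4, 102 and 106 CPM. It was not called with all libraries (0.59 ± 0.19, adjusted p = 0.165) and was called without muscle library 4 (0.67 ± 0.15, adjusted p = 0.00703). Fads2, the desaturase of the preceding step, measured 39, 43.8 and 21.5 CPM and 24.6, 32.2 and 29.1 CPM, and the elongase Elovl6 29.5, 36.1 and 24.2 CPM and 17.7, 24.9 and 29.1 CPM, neither called.

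The median difference of muscle library 4 from the other muscle libraries varied between step groups, as did its counts. On the log2 CPM scale (prior count 2) the median difference of library 4 from the mean of muscle libraries 2 and 3 was -2.73 over 6 tested mevalonate genes, -1.19 over 3 squalene genes and -1.92 over 7 late sterol genes. It was -0.64 over the 5 SREBP control genes, all of them below, -0.42 over the 5 elongation and desaturation genes and 0.16 over the 4 fatty acid synthesis genes. Over all 10823 tested genes it was -0.13, and 24.8% of them were more than 1 below, against 14 of 30 members. Member counts in this library ran from 0 to 152, so single values there are coarse. Of the 6 mevalonate genes, Mvk, Mvd and Fdps had 0 counts, and their values of -4.37, -4.22 and -4.08 depend on the prior count. The other mevalonate values ran from -1.38 (Hmgcs1) to 1.79 (Acat2). The 4 fatty acid synthesis genes had 27 to 66 counts there. Whether low counts rather than step set these medians was not tested. These are differences of 1 library and carry no test.

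Levels of different genes were compared per length, as CPM per kilobase of annotated exon. In lymph node Acly was highest at 66.8 ± 2.21 CPM per kilobase (mean ± SD, n = 3). Scd2 followed at 50.2 ± 10.4, Scd1 at 34.1 ± 4.53, Insig1 at 30.2 ± 10.7, Srebf1 at 23.2 ± 5.71 and Hmgcs1 at 22.4 ± 4.72, and from Scd1 to Hmgcs1 neighbours in this order differed by less than the larger of their SDs. Idi1 was lowest at 0.873 ± 0.628. In muscle libraries 2, 3 and 4 Acly gave 63.9, 64.5 and 33.1, Scd2 66.1, 73.1 and 34.4, Scd1 51.2, 65.7 and 83.5, Insig1 51.3, 53.4 and 10.4 and Hmgcs1 56.6, 56.7 and 21.6 CPM per kilobase. Hmgcs1 stood near Scd1 in muscle libraries 2 and 3, and below it in lymph node. Scd2 exceeded Scd1 per length in muscle libraries 2 and 3, while in library 4 Scd1 was the higher.

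**Figure D4:**
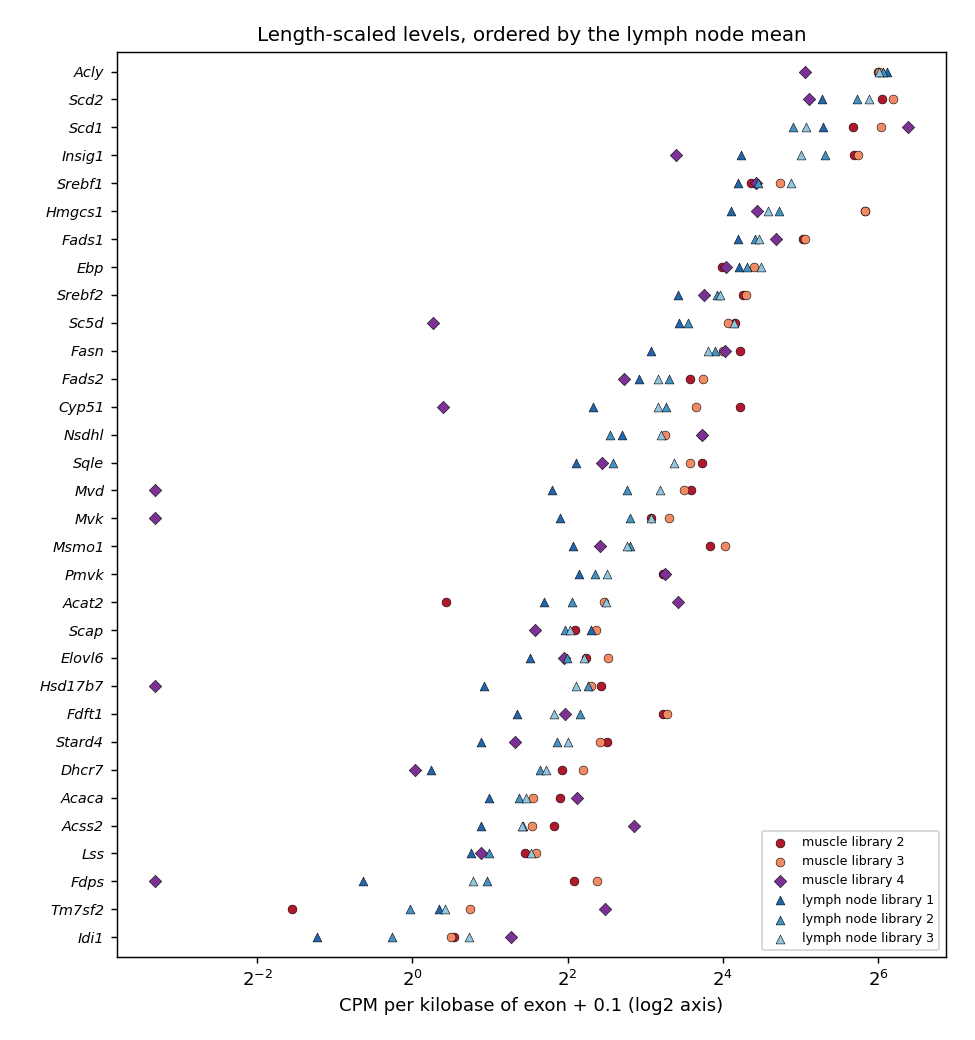
CPM per kilobase of annotated exon (+ 0.1, log2 axis) of each gene in each library, ordered by the lymph node mean. Acly, Scd2 and Scd1 are at the top and Fdps, Tm7sf2 and Idi1 at the bottom.

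Other genes of sterol and fatty acid metabolism, 74 named by function, lay on both sides. Of the 73 found, 60 were tested, with a median log2 fold change of -0.04, 25 above 0 and 35 below. In edgeR's test with all libraries, 11 of the 60 had an unadjusted p under 0.05, beside 1637 of all 10823 genes. After adjustment 0 were called higher and 1 lower. This was Por, the reductase that passes electrons to Cyp51 and Sqle, at 68.6, 51.5 and 24.2 CPM in muscle and 119.9, 141 and 147 CPM in lymph node (-1.40 ± 0.30, adjusted p = 0.031). It was also called without muscle library 4 (-1.17 ± 0.18, adjusted p = 0.000392). Its call was lost under total-count scaling (adjusted p = 0.0568), with muscle library 3 left out (0.125) and with lymph node library 1, 2 or 3 left out (0.113, 0.175 and 0.172). In the fit without muscle library 4, 2 of 61 tested genes were higher and 7 lower in muscle, beside 4.79% higher and 7.58% lower of all genes. The higher ones were Insig2, a relative of Insig1 (0.71 ± 0.19, adjusted p = 0.0237, a call lost when lymph node library 2 or 3 was also left out), and the acyl-CoA synthetase Acsl3 (1.52 ± 0.35, adjusted p = 0.00998).

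The lower ones included 4 of 17 tested genes of sterol export and storage, where 0 were higher, beside the same 7.58% lower and 4.79% higher of all genes. Apoe, the lipid-carrying apolipoprotein, measured 64.4, 79.9 and 906 CPM in muscle and 1535, 1687 and 1627 CPM in lymph node. It was not called with all libraries (-2.28 ± 0.86, adjusted p = 0.237), and without muscle library 4 it was -4.50 ± 0.17 (adjusted p = 1.59e-09). Nr1h3, the oxysterol receptor LXR alpha, measured 19, 18.4 and 0 CPM and 52.5, 38.7 and 40.1 CPM (-1.22 ± 0.25 without muscle library 4, adjusted p = 0.00405). Its target Abca1, which exports cholesterol, measured 101, 172 and 223 CPM and 308, 247 and 294 CPM (-1.07 ± 0.20, adjusted p = 0.00214), and Npc2, a lysosomal cholesterol carrier, 195, 203 and 317 CPM and 409, 368 and 328 CPM (-0.90 ± 0.15, adjusted p = 0.000784). The last 2 values are also without muscle library 4, and none of the 4 was called with it. In these 4 genes all muscle libraries lay below all lymph node libraries, as in 13.7% of all genes. The other lower genes were Por, the fatty acid dehydratase Hacd3 (-0.74 ± 0.18, adjusted p = 0.0143) and Fads6, a desaturase relative that was below the filter with all libraries. Whether the members differed from these lists was not tested.

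Another group of genes moved with tissue in the same libraries. The sum of 28 immediate early and stress genes, which respond to tissue dissociation, was 3901, 4654 and 3833 CPM in muscle and 26804, 24652 and 26448 CPM in lymph node. In edgeR's test with all libraries 21 of the 27 tested were called lower in muscle, beside 2.86% of all genes. Without muscle library 4 it was 23 of 28, beside 7.58% of all genes. The 18 sterol enzymes summed to 865, 869 and 363 CPM in muscle and 344, 500 and 575 CPM in lymph node. Muscle fibre markers summed to 74.4, 87.6 and 51.1 CPM in muscle and 11.4, 12.9 and 15.9 CPM in lymph node, and 8 mural cell markers to 138, 152 and 118 CPM and 77.7, 55.4 and 46.9 CPM. The mural difference was carried by Cspg4, at 73.3, 81.5 and 69.9 CPM in muscle and 6.85, 9.45 and 11.4 CPM in lymph node, and by Des, while Kcnj8 went the other way, at 2.11, 4.61 and 0 CPM and 20.6, 9.88 and 2.28 CPM. The sums of 10 endothelial markers overlapped, at 278, 387 and 245 CPM and 274, 286 and 356 CPM. Tek made up nearly all of each sum except that of muscle library 4, at 263, 366 and 121 CPM in muscle and 260.4, 272 and 339.6 CPM in lymph node. Other endothelial markers were high in muscle library 4: Pecam1 measured 2.11, 3.84 and 59.1 CPM in muscle and 2.28, 1.29 and 2.73 CPM in lymph node, Prox1 3.16, 4.61 and 29.6 CPM and 2.28, 0 and 1.82 CPM, and Lyve1 1.05, 0 and 24.2 CPM and 1.14, 0.43 and 0.911 CPM. The part of any of these groups, the early and stress genes included, in the members' differences was not tested.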

How the data were processed

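Whole-number counts per gene symbol were deposited for 6 libraries. Polyadenylated RNA of 1000 cells per library, sorted in 2 passes, had been copied, PCR-amplified, tagged by a transposase and read as paired 25-base reads, per the labels' protocols. The submitters' processing notes list STAR 2.5.4, featureCounts and the build mm10. How strand and multi-mapped reads were handled, which annotation was used and which markers defined the sort is not given in the sources used here. No molecular identifiers are described, so PCR copies can be counted more than once.

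Muscle columns are numbered unlike the muscle titles and were used as 3 muscle replicates. edgeR 4.0.16 (R 4.3.3) was run on the counts over all genes (filterByExpr, 10823 kept, TMM, quasi-likelihood F test on tissue, adjusted p under 0.05). SE is the log2 fold change divided by the root of F. The members and lists were chosen with earlier results of these data known, so no list was tested. Full statistics were given to each member called with or without muscle library 4, to Srebf1, Srebf2, Scap, Insig1, Hmgcs1, Sqle, Fasn, Acaca and Scd1, and to up to 4 called genes of each other list. Alternatives were RLE and total-count scaling, 2 filters, DESeq2 1.42.0, limma-voom (limma 3.58.1), thinning, a block by column number and leaving out libraries. On data simulated for this comparison (10503 genes) edgeR recovered 86% of 4-fold and 20% of 2-fold changes with 7 false calls. Changes were placed only in genes with a mean of at least 20 CPM, with 3 libraries per tissue. Recovery for lower genes, and for the fit without muscle library 4, was not simulated. Coordinates, exon lengths and 25-base words come from GENCODE M21 (GRCm38). Some pathway genes are not analysed here.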

Additional observations from a re-analysis of the deposited data

How the results depend on the processing

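Over the 6 single libraries left out, edgeR called 0 to 8 members higher in muscle. It called 8 without muscle library 4 and 0 without any 1 of the others. In the latter fits 1 to 7 members and 1146 to 1727 of all genes had an unadjusted p under 0.05. Under every setting run, 0 members were called lower. The count of all genes ran from 28 to 539 higher and from 114 to 852 lower, and that of the other pathway genes from 0 to 2 higher and from 0 to 7 lower. Leaving out muscle library 4 with lymph node library 1, 2 or 3, chosen after seeing the data, gave 8, 8 and 8 members, 700, 403 and 437 genes higher, and 966, 648 and 649 lower. The other pathway genes were then 3, 1 and 2 higher and 7, 7 and 6 lower. Without muscle library 4 and lymph node library 3 the 8 members held Sqle in place of Insig1. With no filter on low counts, 0 members, 419 genes higher and 526 lower were called, with 4 other pathway genes lower. At an unadjusted p under 0.05 that fit had 5 of 32 members and 3318 of 39490 genes. DESeq2 called 260 genes higher and 426 lower, with 2 other pathway genes lower. limma-voom called 2 members higher (Fdft1 and Scd1) and 3 other pathway genes lower, beside 209 of all genes higher and 421 lower. With library weights, also chosen after seeing the data, it called 7 members, 552 genes higher and 814 lower, and 3 other pathway genes higher and 6 lower. Those 7 members held Sqle but not Cyp51 or Insig1. Thinning all libraries to 415460 counts left 103 genes higher. Total-count scaling left 0 other pathway genes called lower, beside 264 of all genes, and moved the median of all genes to 0.10.

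With the column number as a replicate block edgeR called 8 members higher, the same 8 genes as without muscle library 4. Number 4 occurs only in muscle and number 1 only in lymph node, so by construction the block gives those libraries no weight on tissue, and this fit repeats leaving both out rather than adding support. It called 627 genes higher and 903 lower, and 3 other pathway genes higher and 6 lower. Deviations of same-numbered libraries from their tissue means had r = -0.026 and 0.021 for numbers 2 and 3. The muscle mean included library 4, so these values cannot decide whether the numbers pair the libraries.

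Srebf1 turned to 0.061 with total-count scaling, 0.0037 with a filter of 10 CPM in 3 libraries, 0.0082 with limma-voom, and up to 0.17 (from -0.18) over single libraries left out, among them 0.0049 without muscle library 4 and 0.048 without muscle library 2. It was 0.21 without muscle library 4 and lymph node library 3. Scap turned to -0.15 with no filter and ranged from -0.19 to 0.12 over single libraries left out. Depth limits single values in muscle library 4, where 3 counts are 8.06 CPM. The causes of these shifts were not tested.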
